A study of Mus musculus with 8 samples.

Results

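The data describe 10 genes of the FOXO pathway, of muscle-type protein breakdown and of autophagy in fibroadipogenic progenitors (FAPs), stromal muscle cells from which fibroblasts and adipocytes can form. They were the rows with the symbols Foxo1, Foxo3, Foxo4, Fbxo32, Trim63, Fbxo30, Bnip3, Map1lc3b, Gabarapl1 and Sesn1, 10 of the 24419 gene rows in the deposited count table. RNA was sequenced in 8 libraries of progenitors from male C57BL/6J mice, freshly sorted from hindlimb muscle as live SCA-1 positive cells that lacked CD31, CD45 and α7-integrin. Sham mice (n = 2 libraries) had surgery without tumour cells. In the scrambled group (n = 3) KPCY cells, a mouse pancreatic cancer line, were injected into the pancreas after transduction with a lentiviral vector for a scrambled control. The knockdown group (n = 3) received KPCY cells with a lentiviral vector against miR-27a-3p, a microRNA. Both lines were selected with puromycin, and the vectors were in the tumour cells and not in the FAPs. The labels call the libraries biological replicates and give no time of collection, no tumour or muscle mass, and no word on whether mice were pooled.

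FOXO proteins are transcription factors that growth factor signals keep out of the nucleus: phosphorylation by AKT and SGK1 holds them in the cytoplasm, and loss of that signal lets them reach their target genes. In wasting muscle fibres their targets include the ubiquitin ligases atrogin-1 (Fbxo32) and MuRF1 (Trim63), which mark proteins for the proteasome. They also include autophagy genes such as Map1lc3b, Gabarapl1 and Bnip3, whose products build the autophagosome and bring cargo to it. These genes are best known from muscle fibres, while the cells sequenced here are stromal.

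Total counts per library ran from 15647436 to 28340450, and 13646 genes were tested. Levels are normalised CPM, counts divided by library size after scaling by the trimmed mean of M-values (TMM), and changes are log2 fold changes with their standard error (SE). Of the variance in log2 CPM, 61.1% lay along 1 principal component, on which scrambled libraries 1 and 3 scored 115 and 92.0, scrambled library 2 scored -12.3 and the remaining 5 from -47.7 to -32.3. Scrambled library 2 thus stood apart from the rest of its group. Pdgfra, the receptor that marks these progenitors, lay between 1256 and 1588 CPM in all 8 libraries, and none of 10 FAP markers was called in scrambled against sham libraries, with 3 log2 changes above 0 and 7 below (before adjustment, 1 was higher and 3 lower at p under 0.05). More of them lay lower: the groups did not overlap for 5 on the lower and 1 on the higher side (20.8% and 20.2% of tested genes). Their median log2 change was -0.94. Dcn stood at 11101 and 14630.4 CPM in sham and 24983, 19625 and 21059 CPM in scrambled libraries, and Cd34 at 2250 and 2156 against 213, 1179 and 241 CPM. Col3a1 stood at 22477 and 13185 against 990, 10123 and 974 CPM, and Ly6a at 951 and 933 against 451, 1136 and 436 CPM. The part of this in the results was not tested.

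All 10 genes had their 2 highest values in scrambled libraries 1 and 3. Over all tested genes, 27.9% had both of these libraries above the other 6. Scrambled library 2 was the lowest of its group for 10 of 10 genes. The share of all tested genes with this order was not taken, so the count does not set the 10 apart. Scrambled library 2 lay above both sham libraries for 7 of 10 (36.1% of tested genes) and above all 3 knockdown libraries for 7 of 10 (31.2% of tested genes). Trim63, which passed the filter on low counts only through the scrambled libraries, is in all of these counts. Without Trim63 the last 2 were each 6 of 9. Counts of calls that involve the scrambled group are given with and without scrambled library 2.

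**Figure D1:**
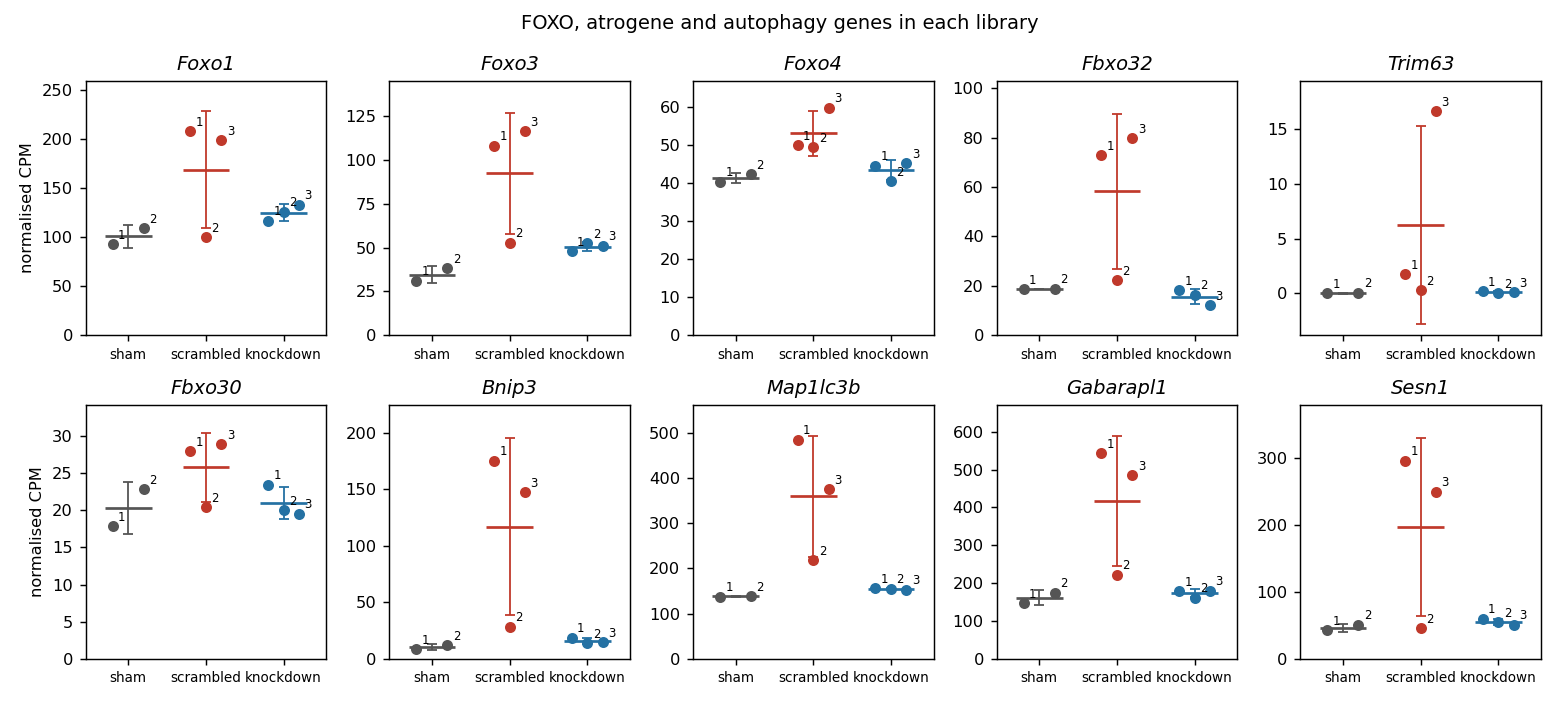
Normalised CPM (vertical axis, linear, a separate scale for each gene) of the 10 genes in each library, by group (horizontal axis). Points are libraries labelled with their replicate number, lines are group means and bars are SDs; scrambled libraries 1 and 3 are the 2 highest of the 8 in every panel.

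Progenitors from mice with scrambled tumours were compared with those of sham mice to ask how these cells differ in a mouse with a pancreatic tumour. By edgeR's quasi-likelihood test, adjusted by Benjamini-Hochberg over all tested genes, 1 of the 10 genes was called higher, Bnip3, and none lower (1.1% and 0.476% of tested genes). At an unadjusted p under 0.05, 8 of 10 were higher and 0 lower (16.7% and 12.5% of tested genes). The groups did not overlap, with scrambled libraries higher, for 7 of 10 (20.2% of tested genes). Trim63 passed the filter on low counts only through the scrambled libraries, where it is high; of the other 9 genes 1 was called, 7 had an unadjusted p under 0.05 and 6 did not overlap. The median log2 change of these 9 was 1.38, against 0.00 over all tested genes. Without scrambled library 2, 10 of 10 were called higher, or 9 of 9 without Trim63 (25.4% of tested genes). When scrambled library 1 or 3 was left out instead, 0 of the 9 members tested were called higher (0.424% and 0.332% of tested genes). With DESeq2 on all 8 libraries 7 of 10 were called higher, or 6 of 9 without Trim63 (9.09%).

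Knockdown libraries were compared with scrambled libraries to see how FAPs depend on miR-27a-3p in the tumour. None of the 10 genes was called in either direction (edgeR adjusted p from 0.0622 to 0.321; of tested genes 0.00733% were called higher, 0.044% lower). With no adjustment, at p under 0.05, 7 of 10 were lower and 0 higher (18.6% and 13.9% of tested genes). The groups did not overlap, with knockdown libraries lower, for 7 of 10 (16.7% of tested genes). Of the 9 genes other than Trim63, 6 had an unadjusted p under 0.05, 6 did not overlap, and the median log2 change was -1.22, against 0.01 over all tested genes. Without scrambled library 2, 9 of 10 were called lower, all but Foxo4, or 8 of 9 without Trim63 (26.6% of tested genes). When scrambled library 1 or 3 was left out instead, 0 of the 9 members tested were called lower (0.00744% and 0.0295% of tested genes). DESeq2 called 7 of 10 lower, or 6 of 9 (10.7%). Both comparisons use the same 3 scrambled libraries, so a scrambled library that is high enters each of them with opposite sign.

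Among the transcription factors, Foxo1, the most studied FOXO protein of metabolism and differentiation, lies on chromosome 3 from 52268336 to 52353221 (+ strand, GRCm38, 3 merged exons). It stood at 92.4 and 109 CPM in sham libraries 1 and 2, at 207, 99.6 and 198 in scrambled libraries 1, 2 and 3, and at 116, 125 and 133 in knockdown libraries 1, 2 and 3. Scrambled library 2 fell between the sham libraries and below every knockdown library, so the scrambled group overlapped both other groups. The log2 change was 0.74 ± 0.29 (SE) from sham to scrambled libraries (edgeR adjusted p = 0.144) and -0.43 ± 0.26 from scrambled to knockdown libraries (0.259). Without scrambled library 2 these were 1.02 and -0.71, with adjusted p over the alternatives from 0.00013 to 0.484 and from 0.000603 to 0.579.

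Foxo3, the FOXO protein best known for driving autophagy and ubiquitin ligase genes in muscle, lies on chromosome 10 from 42181841 to 42276755 (- strand). Its level was 31.1 and 38.1 CPM in the sham, 108, 52.8 and 116 in the scrambled and 48.0, 52.6 and 51.1 in the knockdown libraries. All scrambled libraries lay above all sham libraries, and scrambled library 2 was just above the highest knockdown library. It was 2.67-fold higher in scrambled than in sham libraries (log2 1.42 ± 0.32; edgeR adjusted p = 0.0587). From scrambled to knockdown libraries the log2 change was -0.87 ± 0.27 (adjusted p = 0.0879). All 3 knockdown libraries also lay above both sham libraries, by a fitted 1.46-fold (log2 0.55 ± 0.31, 95% interval from -0.16 to 1.25, adjusted p = 1).

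Foxo4, the X-linked member of the family (chromosome X from 101254528 to 101260873, + strand), varied least. It stood at 40.2 and 42.2 CPM in sham, 49.8, 49.3 and 59.6 in scrambled and 44.5, 40.5 and 45.1 in knockdown libraries. The scrambled libraries lay above the other 5, with scrambled library 2 close to scrambled library 1. The change was small, 1.28-fold from sham to scrambled libraries (log2 0.36 ± 0.17; edgeR adjusted p = 0.186) and -0.29 ± 0.15 on the log2 scale from scrambled to knockdown libraries (0.204).

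Levels of different genes can be compared per length, here as CPM per kilobase of merged exons. On this scale Foxo1 stood at 11.6 ± 1.35 (SD, n = 2), Foxo4 at 11.8 ± 0.407 and Foxo3 at 4.57 ± 0.658 in sham libraries, so Foxo1 and Foxo4 did not differ beyond their spread and Foxo3 was lower. Foxo6, the fourth FOXO gene of the mouse and not among the 10, stood at 4.94 ± 1.05. In scrambled libraries Foxo3 made up 26.8%, 20.4% and 27.5% of the summed FOXO level per length, against 12.8% and 14.8% in sham and 18.2% to 19.7% in knockdown libraries. The share of Foxo6 was 17.8% and 12.4% in sham, 1.60%, 4.68% and 0.991% in scrambled and 5.10% to 6.47% in knockdown libraries. Foxo6 was called lower in scrambled than in sham libraries (log2 -2.26 ± 0.40, edgeR adjusted p = 0.0372), from 14.9 and 10.99 CPM to 2.23, 4.18 and 1.45 CPM, and knockdown libraries held 4.57, 5.97 and 5.47 CPM. Foxo6, unlike the other FOXO genes, thus lay lower in the scrambled libraries than in any other library.

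**Figure D2:**
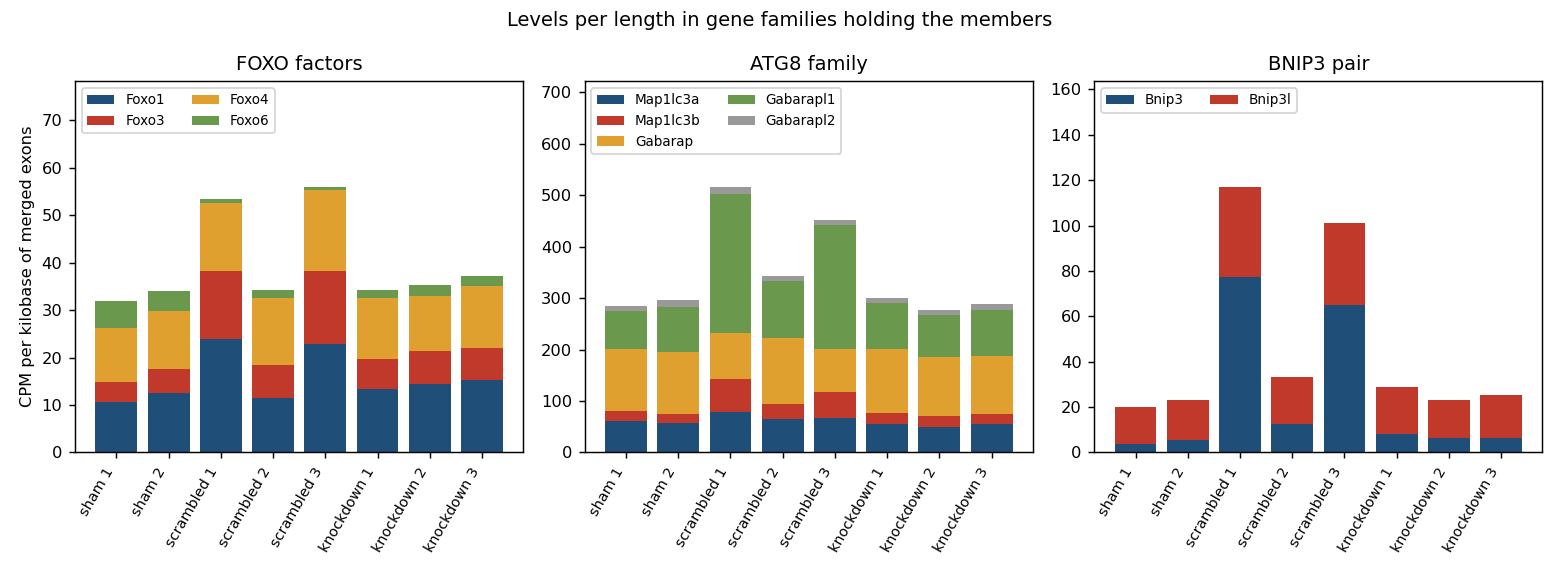
CPM per kilobase of merged exons (vertical axis, linear) stacked by gene for the FOXO factors, the ATG8 family and Bnip3 with Bnip3l in each of the 8 libraries (horizontal axis). In scrambled libraries 1 and 3 the tallest segments of the ATG8 family are Gabarapl1 (270.1 and 241) and those of the pair Bnip3 (77.4 and 65.1), while Foxo1, Foxo3 and Foxo4 all stand above their sham values.

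Of the ubiquitin ligases, Fbxo32 encodes atrogin-1, the F-box protein that defines the atrogenes of wasting muscle. It lies on chromosome 15 from 58175879 to 58214932 (- strand). Sham libraries held 18.7 and 18.7 CPM, scrambled libraries 73.0, 22.2 and 79.7 CPM and knockdown libraries 18.2, 16.4 and 12.1 CPM. Scrambled libraries 1 and 3 were thus well above the rest, scrambled library 2 was 0.24 log2 above the sham mean, and all 3 knockdown libraries lay below both sham libraries. Fbxo32 was 3.10-fold higher in scrambled than in sham libraries (log2 1.63 ± 0.48; edgeR adjusted p = 0.0919), and lower by a log2 change of -1.90 ± 0.42 in knockdown than in scrambled libraries (0.0699). Between knockdown and sham libraries the log2 change was -0.27 ± 0.47 (95% interval from -1.33 to 0.79). Without scrambled library 2 the log2 changes from sham to scrambled and from scrambled to knockdown libraries were 2.03 and -2.31. Their adjusted p over the alternatives ran from 8.28e-06 to 0.422 and from 1.26e-06 to 0.236.

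Trim63 encodes MuRF1, a RING-finger ligase of the sarcomere and the other classical atrogene (chromosome 4 from 134315120 to 134329629, + strand). It had 0 and 1 reads in the sham, 44, 7 and 264 in the scrambled and 4, 0 and 3 in the knockdown libraries, or 1.72, 0.296 and 16.6 CPM in the scrambled libraries. Of 315 reads in the scrambled group, 264 came from library 3. The ratio of scrambled to sham libraries was 163, with an exact 95% interval from 29.1 to 6470 that covers counting error only and not the spread between mice. The fitted log2 change of 7.32 ± 2.36 was not called (edgeR adjusted p = 0.0956), nor was that of -5.55 ± 1.53 from scrambled to knockdown libraries (0.0727). The knockdown and sham groups held 7 and 1 reads, a ratio of 3.92 (0.503 to 177). By counting error alone, a library at 0 reads could stand for as many as 3.

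Trim63 is a gene of muscle fibres, and fibre transcripts were unevenly present. The 15 fibre markers (Acta1, Ckm, myosins, troponins and others), none of them at 0 in all libraries, summed to 51.1 and 95.3 CPM in sham, 131, 121 and 382 CPM in scrambled and 67.1, 88.6 and 77.4 CPM in knockdown libraries. The highest sum was in scrambled library 3, which also held most of the Trim63 reads. Their part in the Trim63 and Fbxo32 values was not tested. Fbxo32 was nearly level between scrambled libraries 1 and 3 (library 3 at 1.09 times library 1), where Trim63 differed 9.64 times. In bulk RNA, more cells of a type and more RNA per cell cannot be told apart.

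The Trim63 promoter is shown because it holds, side by side, matches to the sites of a FOXO protein and of the glucocorticoid receptor, a hormone receptor that drives muscle wasting. The 250 bases upstream of its start (chr4:134314870-134315119, + strand, RefSeq, GRCm38.p6) follow 5′ to 3′, with the matches in capitals:
Trim63: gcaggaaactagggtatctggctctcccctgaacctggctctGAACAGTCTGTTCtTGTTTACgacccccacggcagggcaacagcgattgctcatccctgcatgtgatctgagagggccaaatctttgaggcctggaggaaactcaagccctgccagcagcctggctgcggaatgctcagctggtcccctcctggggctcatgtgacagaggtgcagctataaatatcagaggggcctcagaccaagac

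The first match, from -208 to -196 relative to the start, is to the palindrome of the glucocorticoid receptor, GNACA and TGTNC with 3 free bases between them. The second, from -194 to -188, is to GTAAACA, the FOXO site, on the opposite strand, with 1 base between them. Motifs were searched on both strands in windows of 300 bases, from 250 before to 50 after each start, and 0.475% of 32851 windows in the RefSeq table held the first, 3.65% the second and 5 windows both. A match of letters is a description of the sequence and not a site shown to be bound.

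Fbxo30 (chromosome 10 from 11281330 to 11298052, + strand) encodes an F-box protein also called MUSA1, which is likewise induced in wasting muscle. Its values were 17.8 and 22.8 CPM in sham, 27.97, 20.4 and 28.9 in scrambled and 23.5, 20.04 and 19.5 in knockdown libraries. Scrambled library 2 fell between the sham libraries and only scrambled libraries 1 and 3 exceeded all others. From sham to scrambled libraries the log2 change was 0.34 ± 0.23 (edgeR adjusted p = 0.327) and -0.29 ± 0.20 from scrambled to knockdown libraries (0.321). Per length, Fbxo30 stood above Fbxo32 in both sham libraries, at 3.91 ± 0.678 (SD, n = 2) and 2.69 ± 0.00235 CPM per kilobase. In scrambled libraries they stood at 4.96 ± 0.896 and 8.36 ± 4.51 (n = 3), with Fbxo32 above in libraries 1 and 3 only.

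Bnip3, a mitochondrial outer membrane protein that recruits autophagosomes to mitochondria and is induced by hypoxia, changed most apart from Trim63. It lies on chromosome 7 from 138890836 to 138909519 (- strand). It stood at 8.67 and 12.3 CPM in sham, 175, 28.3 and 147 in scrambled and 18.7, 14.0 and 14.6 in knockdown libraries. All 3 scrambled libraries lay above the other 5 libraries, though scrambled library 2 was far closer to these than to scrambled libraries 1 and 3, whose mean was 5.70 times its value. Bnip3 rose 11.1-fold from sham to scrambled libraries (log2 3.48 ± 0.69; edgeR adjusted p = 0.0482). The call lay close to the threshold: it held in 4 of 15 alternatives, with adjusted p from 1.53e-07 to 0.4, and the log2 change ran from 3.06 to 3.94. From scrambled to knockdown libraries the log2 change was -2.89 ± 0.56 (adjusted p = 0.0622; over the alternatives from 1.84e-07 to 0.236, and called in 2 of 15). All knockdown libraries lay above both sham libraries, with a log2 change of 0.58 ± 0.64 (95% interval from -0.87 to 2.04).

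Its close relative Bnip3l, also a mitophagy receptor, stood at 62.1 and 67.5 CPM in sham, 153, 79.6 and 138 in scrambled and 79.1, 65.6 and 72.8 in knockdown libraries (log2 0.93 ± 0.27 from sham to scrambled, edgeR adjusted p = 0.0875). Per length, Bnip3 made up 19.2% and 23.7% of the pair in sham libraries, 66.2%, 37.7% and 64.5% in scrambled libraries 1, 2 and 3 and 25.4% to 28.7% in knockdown libraries. Bnip3l was thus the main transcript of the pair in 6 libraries and Bnip3 in scrambled libraries 1 and 3.

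Of the autophagosome proteins, Map1lc3b encodes LC3B, the ATG8 protein most used to mark autophagosomes (chromosome 8 from 121590361 to 121598760, + strand). It stood at 137 and 139 CPM in sham, 485, 218 and 376 in scrambled and 156, 155 and 153 in knockdown libraries. The sham and knockdown libraries were tight, and every scrambled library lay above them. It was 2.60-fold higher in scrambled than in sham libraries (log2 1.38 ± 0.30; edgeR adjusted p = 0.0566). From scrambled to knockdown libraries the log2 change was -1.22 ± 0.26 (0.0684), and from sham to knockdown libraries 0.16 ± 0.29 (95% interval from -0.49 to 0.81). Without scrambled library 2 the first 2 were 1.65 and -1.48, with adjusted p over the alternatives from 6.98e-06 to 0.4 and from 5.25e-06 to 0.236.

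Gabarapl1 encodes an ATG8 protein of the GABARAP branch, which acts late in autophagosome formation (chromosome 6 from 129533160 to 129542346, + strand). It stood at 148 and 175 CPM in sham, 544, 222 and 485 in scrambled and 179, 161 and 180.1 in knockdown libraries. As with Map1lc3b, the scrambled libraries did not overlap the other groups. Unlike for Map1lc3b, the knockdown and sham libraries did overlap. From sham to scrambled libraries its log2 change was 1.37 ± 0.34 (2.58-fold; edgeR adjusted p = 0.0711), -1.26 ± 0.30 from scrambled to knockdown (0.0726) and 0.11 ± 0.33 from sham to knockdown libraries (95% interval from -0.64 to 0.85).

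The ATG8 family did not move as a whole. Per length Gabarap led in sham libraries, at 121 ± 0.595 CPM per kilobase, before Gabarapl1 (80.2 ± 9.72), Map1lc3a (59.2 ± 3.19), Map1lc3b (18.4 ± 0.191) and Gabarapl2 (11.4 ± 1.30). In scrambled libraries 1 and 3 Gabarapl1 led, at 270.1 and 241, and Gabarap stood at 88.9 and 83.8. The share of Gabarapl1 in the summed ATG8 level was 25.7% and 29.4% in sham, 52.4%, 32.1% and 53.3% in scrambled and 29.0% to 31.0% in knockdown libraries. From sham to scrambled libraries the log2 changes of Gabarap, Map1lc3a and Gabarapl2 were -0.27 ± 0.21, 0.25 ± 0.16 and 0.01 ± 0.20 (edgeR adjusted p = 0.375, 0.308 and 0.979). Merged exons count every annotated transcript, so the level per length of Map1lc3b, whose merged length is 7517 bases, depends on which of them the cells use.

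Stretches of the promoters of Gabarapl1 and Bnip3 are shown because each holds a match to a site tied to FOXO or to hypoxia and nutrient signalling, in capitals (RefSeq, GRCm38.p6, 5′ to 3′ of the gene). That of Gabarapl1 (chr6:129533077-129533123, + strand) has ATAAACA, a variant of the FOXO site, from -95 to -89, and that of Bnip3 (chr7:138909589-138909634, - strand) has the E-box CACGTG from -108 to -103:
Gabarapl1: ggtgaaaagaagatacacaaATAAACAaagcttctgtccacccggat
Bnip3: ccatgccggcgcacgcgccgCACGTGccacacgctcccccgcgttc

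ATAAACA occurs in 4.60% and CACGTG in 7.15% of the windows. Of the 10 genes 8 were matched in the RefSeq table, all but Foxo4 and Fbxo32. The Gabarapl1 window also holds TTCNNNGAA, the STAT palindrome, from -214 to -206 (8.30% of windows). GTAAACA occurs in that of Sesn1 after the start, from 23 to 29. The windows of Foxo1, Foxo3, Map1lc3b and Fbxo30 held none of the 5 motifs, which says only that these letters are not in these windows.

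Sesn1 encodes sestrin 1, a leucine-sensing inhibitor of the growth kinase complex mTORC1 that is a target of p53 and FOXO (chromosome 10 from 41809935 to 41908424, + strand). Sham libraries held 42.3 and 50.7 CPM, scrambled libraries 296, 45.5 and 249 CPM and knockdown libraries 59.6, 54.4 and 51.1 CPM. Scrambled library 2 lay between the sham libraries and below all knockdown libraries, so Sesn1 split the scrambled group more sharply than any other of the 10 but Trim63: libraries 1 and 3 averaged 5.99 times library 2. Its fitted log2 change was 2.08 ± 0.63 between sham and scrambled libraries (edgeR adjusted p = 0.0966) and -1.84 ± 0.54 from scrambled to knockdown libraries (0.0797). Without scrambled library 2 these were 2.56 and -2.32, with adjusted p over the alternatives from 5.34e-07 to 0.424 and from 3.99e-07 to 0.237. The other sestrins were low, Sesn2 between 2.36 and 14.7 CPM and Sesn3 between 4.58 and 18.5 CPM. Per length Sesn1 made up from 81.9% to 96.7% of the sestrin level in every library. Sesn3 was at 4.58 and 5.42 CPM in scrambled libraries 1 and 3 and at 9.93 to 18.5 CPM in the other 6, the opposite side from Sesn1 (log2 -0.92 ± 0.40 from sham to scrambled, adjusted p = 0.168).

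**Figure D3:**
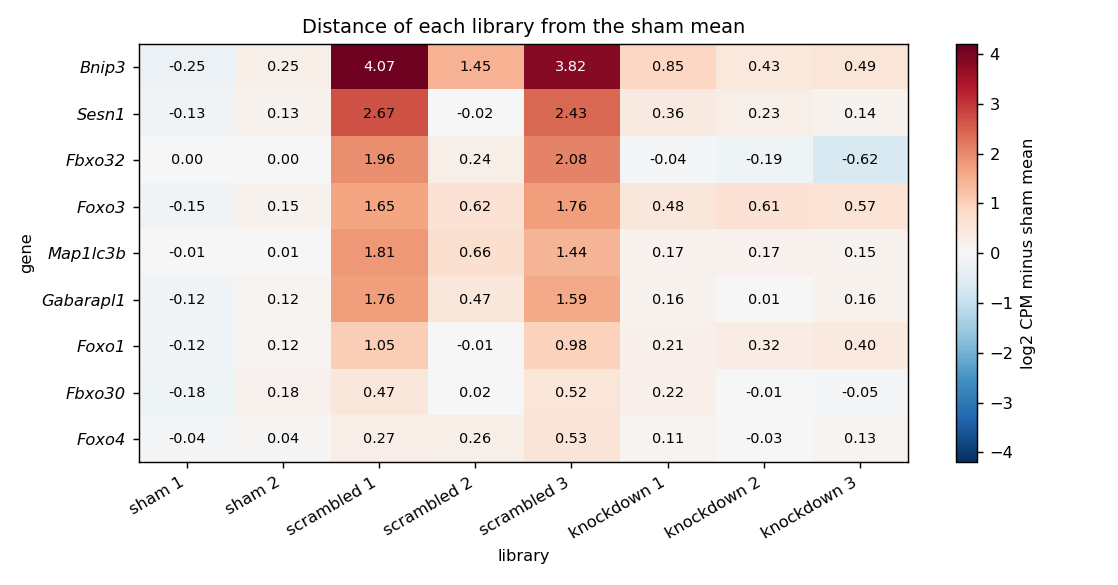
Distance of each library (columns) from the mean of the sham libraries in log2 CPM for 9 of the 10 genes (rows), as colour and number; Trim63 is left out because of its near-zero counts. Scrambled library 1 lies at 4.07 for Bnip3 and 0.27 for Foxo4, and scrambled library 2 at 1.45 and 0.26.

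In knockdown against sham libraries none of the 10 genes was called in either direction (edgeR adjusted p = 1 for each; 0.00733% of tested genes higher and 0% lower), and 0 had an unadjusted p under 0.05 (1.67% of tested genes higher and 0.696% lower). The smallest unadjusted p was 0.112, that of Foxo3. With DESeq2 0 of 10 were called as well. The knockdown libraries lay wholly above the sham libraries for Foxo1, Foxo3, Bnip3, Map1lc3b and Sesn1, 5 of 10 (13.8% of tested genes), and wholly below for Fbxo32, 1 of 10 (13.5%). Fitted log2 changes other than that of Trim63 ran from -0.27 (Fbxo32) to 0.58 (Bnip3). The intervals do not show that the groups are alike: that of Sesn1 ran from -1.10 to 1.59 and that of Foxo1 from -0.35 to 0.97.

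**Figure D4:**
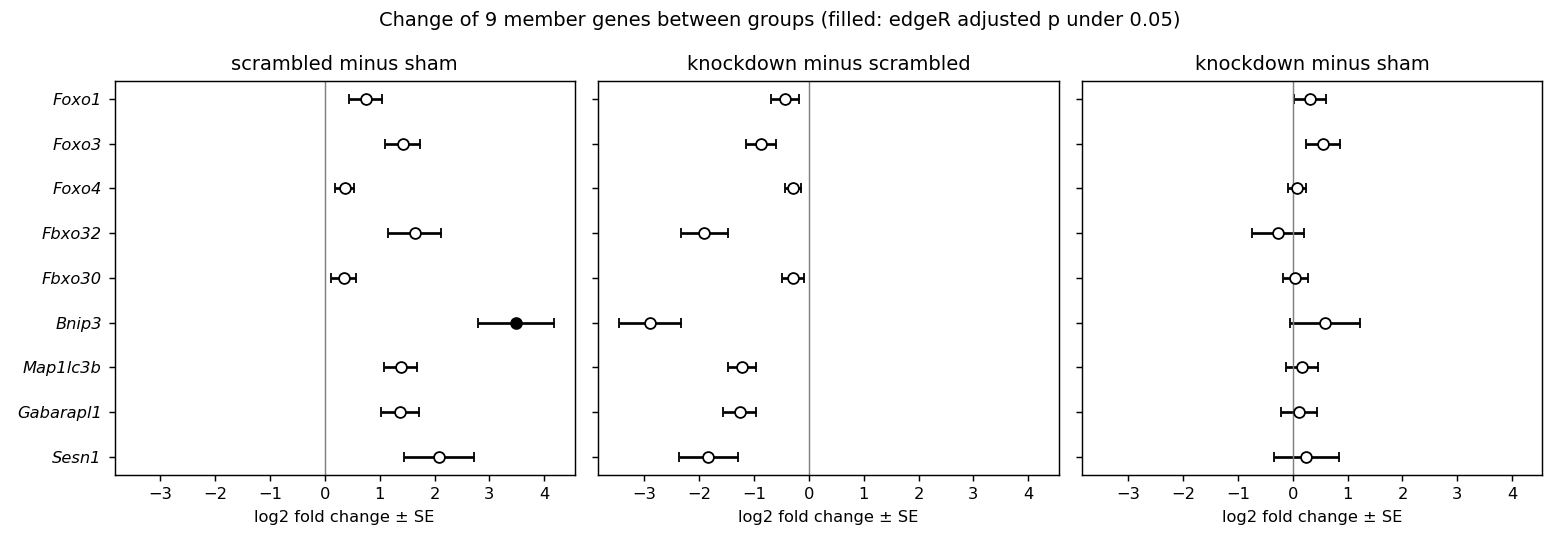
Log2 fold change with its SE (horizontal axis) of 9 of the 10 genes (rows; Trim63 is left out) in the 3 comparisons. The filled point, Bnip3 in scrambled against sham libraries at 3.48, is the only one with an edgeR adjusted p under 0.05.

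The order of the 10 genes by level per length was led by Gabarapl1 in each group, at 80.2 ± 9.72 CPM per kilobase in sham (SD, n = 2), 207 ± 85.1 in scrambled (n = 3) and 86.2 ± 5.25 in knockdown libraries (n = 3). Trim63 was last in each. In sham libraries Map1lc3b followed Gabarapl1. Foxo4, Sesn1 and Foxo1 (11.8, 11.7 and 11.6) did not differ beyond their spread, nor did Bnip3, Foxo3 and Fbxo30 (4.62, 4.57 and 3.91). Bnip3 went from the sixth place in sham to the second in scrambled libraries (51.7 ± 34.5), where its spread overlapped those of Sesn1 (49.4 ± 33.4) and Map1lc3b (47.8 ± 17.8), and it was again sixth in knockdown libraries (6.95 ± 1.15).

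Other genes of the pathway were taken from 9 lists, and 6 of their 184 tested genes were called in scrambled against sham libraries, 5 higher and 1 lower (over all tested genes, 1.1% higher and 0.476% lower). Of 22 tested FOXO targets outside the 10, 2 were called higher and 0 lower, 12 were higher and 2 lower with no adjustment at p under 0.05, and the median log2 change was 1.05. Over all tested genes the shares with no adjustment were 16.7% higher and 12.5% lower, and they apply to each list in this comparison. The called ones were Gadd45a (log2 1.05 ± 0.20, edgeR adjusted p = 0.0444), a stress gene of growth arrest and DNA repair, and Pdk4 (4.78 ± 0.95, 0.0482), a kinase that restrains glucose oxidation. Gadd45a stood at 45.0 and 31.3 CPM in sham and 79.5, 69.7 and 86.9 in scrambled libraries, with library 2 close to its group, while Pdk4 stood at 13.6 and 15.7 against 520, 48.0 and 643 CPM. Of 22 tested other atrogenes and ubiquitin ligases, 2 were called higher, the transcription factor gene Cebpd (2.06 ± 0.32, 0.0252) and the ligase gene Znrf2 (1.37 ± 0.25, 0.0389), with a median of 0.93 and, with no adjustment, 11 higher and 1 lower. Of 26 FOXO regulators 0 were called higher and 1 lower, Foxo6, with a median of 0.36 and, with no adjustment, 7 higher and 3 lower. Sgk1, a kinase that phosphorylates FOXO proteins, was not called (2.66 ± 0.57, 0.0547), at 106 and 86.2 CPM in sham and 754, 184 and 877 in scrambled libraries.

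Of 18 genes of autophagy initiation and nucleation 0 were called. At an unadjusted p under 0.05, 13 were higher and 0 lower (16.7% and 12.5% of tested genes), with a median of 0.61. Among them Ulk1, the kinase that starts autophagy, stood at 43.0 and 53.8 CPM in sham, 227, 54.6 and 208 in scrambled and 48.1, 48.8 and 52.0 in knockdown libraries (log2 1.75 ± 0.51, edgeR adjusted p = 0.0881). Atg101, a subunit of its complex, had a log2 change of 1.33 ± 0.36 (0.0802). Of 13 genes of ATG8 conjugation and the rest of the ATG8 family 0 were called and 1 had an unadjusted p under 0.05, on the lower side, with a median of 0.14; the smallest p values were those of the protease gene Atg4c (-0.84 ± 0.34, 0.152) and the conjugating enzyme gene Atg3 (0.35 ± 0.18, 0.225). Of 14 autophagy and mitophagy receptors 0 were called (median 0.35; with no adjustment 4 higher and 2 lower), and the cargo receptor gene Sqstm1 was at 0.88 ± 0.24 (0.0818).

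Of 20 lysosome and TFEB genes 1 was called higher, Mitf (1.99 ± 0.34, edgeR adjusted p = 0.0363), which encodes a transcription factor related to TFEB, and the median was 0.13, with 6 higher and 1 lower before adjustment. Mitf stood at 21.1 and 34.9 CPM in sham, 124, 67.5 and 142 in scrambled and 43.5, 41.7 and 48.1 in knockdown libraries. Of 21 genes of the sestrin, GATOR and mTORC1 system 0 were called (median 0.42; with no adjustment 7 higher and 2 lower), with Deptor, which encodes an mTOR inhibitor, at 1.29 ± 0.30 (0.0610) and Flcn at 1.18 ± 0.32 (0.0802). Of 31 proteasome subunits 0 were called, 2 had an unadjusted p under 0.05 on the higher side and 1 on the lower side, and the median was 0.00, with Psmd8 at 0.80 ± 0.23 (0.0858) and Psmb5 at -0.57 ± 0.20 (0.117). The median over all tested genes was 0.00. In knockdown against scrambled libraries none of the 184 genes was called in either direction, and the list medians were -0.78 for FOXO targets, -0.77 for other atrogenes, -0.58 for initiation and nucleation, -0.31 for FOXO regulators and -0.05 for the proteasome, against 0.01 for all tested genes. Before adjustment, at p under 0.05, 18.6% of all tested genes were lower and 13.9% higher. On the same measure 12 of 22 FOXO targets were lower and 6 higher, 14 and 1 of 22 other atrogenes, 13 and 0 of 18 initiation genes and 10 and 1 of 26 FOXO regulators. For the other lists these counts were 1 and 1 of 13 (ATG8 conjugation), 7 and 2 of 14 (receptors), 6 and 1 of 20 (lysosome), 7 and 2 of 21 (mTORC1) and 4 and 2 of 31 (proteasome).

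**Figure D5:**
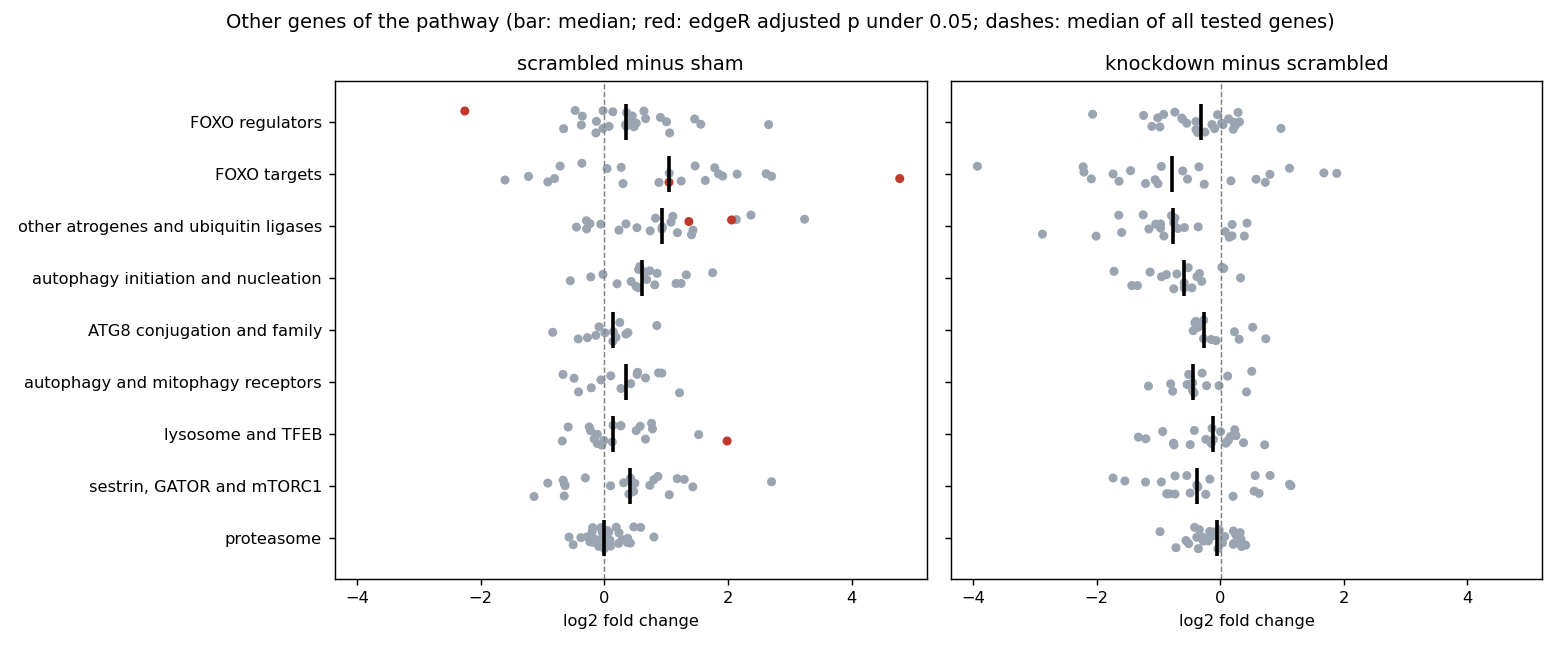
Log2 fold change (horizontal axis) of each tested gene of 9 pathway lists (rows, points spread vertically for legibility) in scrambled against sham and in knockdown against scrambled libraries. Black bars are list medians, from 0.00 for the proteasome to 1.05 for FOXO targets in the left panel, and red points are the genes with an edgeR adjusted p under 0.05.

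The genes whose profile over the 8 libraries was most like that of 3 members were sought by the root mean square difference of log2 CPM, each gene centred on its own mean, among 3655 genes. Nearest to Foxo1 were Cpeb4, Cdc40 and Pptc7 (0.108, 0.115 and 0.117 log2 units). Nearest to Foxo3 were Mtss1l, Pkp4 and Dapk1 (0.100, 0.113 and 0.114), and to Fbxo32 Klhl21, Tgif1 and Fam214a (0.184, 0.191 and 0.200). Among the members that qualified, the nearest to Foxo1 was Foxo3 (0.276), to Foxo3 Gabarapl1 (0.224) and to Fbxo32 Sesn1 (0.346). These distances share the same 8 libraries and their depth, and are a description.

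The microRNA inhibited in the tumour cells is shown with the matches to its seed in the members' own 3′ untranslated regions, since Foxo1 is a reported target of miR-27a. The seed (bases 2 to 8) and the letters that pair with it are in capitals, and the mature sequence (chr8:84208727-84208747, + strand) is that of RefSeq, GRCm38.p6:
mmu-miR-27a-3p: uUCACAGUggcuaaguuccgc
Foxo1: actcttttgtaatACTGTGAt
Foxo3: gcatacccggttaACTGTGAc
Fbxo32: gtgtgaattttcaACTGTGAt

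The letters ACTGTGA occurred once in the 3′ untranslated region (1 GENCODE M21 transcript a gene, the principal one by its APPRIS tag) of Foxo1, Foxo3 and Fbxo32, 2 times in that of Fbxo30 and in none of the other 6, against 14.8% of 20636 genes with at least 1 match. The regions of the first 3 are long (6240, 4490 and 5587 bases, against a median of 855), so a match by length alone is likelier in them. In knockdown against sham libraries the log2 changes of Foxo1, Foxo3, Fbxo32 and Fbxo30 were 0.31, 0.55, -0.27 and 0.05, none called by edgeR (adjusted p = 1). From scrambled to knockdown libraries, which differ by the vector in the tumour cells, those of the same genes were -0.43, -0.87, -1.90 and -0.29. All were below 0 and none was called (edgeR adjusted p from 0.0699 to 0.321). This did not set them apart from the members without a match, since all 10 members were below 0 in this comparison. Over all tested genes, 6719 of 13646 were below 0.

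Markers of other cells were summed in each library. The sort was gated against CD31 and CD45, which should remove endothelial cells and leukocytes. Endothelial markers (8 genes) ran from 513 to 531 CPM in sham, 382 to 451 in scrambled and 489 to 573 in knockdown libraries. Most of this sum was Tek, at a mean of 402 CPM in sham and 236 in scrambled libraries. From sham to scrambled libraries 6 of the 8 log2 changes were above 0 and 2 below, with Pecam1 at means of 25.0 and 55.6 CPM. Leukocyte markers (13 genes) ran from 14.1 to 21.7 CPM in sham, 24.9 to 45.5 in scrambled and 15.2 to 48.5 in knockdown libraries. Tenocyte markers (6 genes) ran from 705 to 1148 CPM in sham, 669.8 to 929 in scrambled and 708 to 1419 in knockdown libraries. Those of pericytes and smooth muscle (7 genes) ran from 176 to 192, 138 to 173 and 176 to 265 CPM. In this sum Cspg4 went from a mean of 97.8 CPM in sham to 15.3 in scrambled libraries. It was the 1 gene of the 7 with a log2 change below 0 between these groups, and 6 were above 0. Muscle stem cell markers (7 genes) ran from 73.7 to 81.2 CPM in sham, 29.9 to 69.7 in scrambled and 52.6 to 62.8 in knockdown libraries. Most of this sum was Des, at a mean of 73.7 CPM in sham and 41.5 in scrambled libraries. Of the 4 that were tested, 3 log2 changes from sham to scrambled libraries were above 0 and 1, that of Des, below. Itga7 stood at means of 3.40 and 8.61 CPM. Schwann cell markers (5 genes) stood at 32.8 and 34.3 CPM in sham, 91.0, 49.7 and 78.7 in scrambled and 58.4, 65.4 and 66.7 in knockdown libraries, highest in scrambled libraries 1 and 3. Epithelial markers, which the tumour cells could carry (6 genes), stood at 18.3 CPM in scrambled library 1 and from 4.35 to 8.32 CPM in the other 7. In scrambled library 1 Epcam was at 4.04 CPM and Cdh1 at 9.40 CPM. Krt19 went the other way, at 0.549 CPM in that library against 2.34 and 2.62 CPM in sham libraries. Of the 3 that were tested, 2 log2 changes from sham to scrambled libraries were above 0 and 1, that of Krt19, below. Mature adipocyte markers (5 genes, 1 at 0 in all) ran from 0 to 0.614 CPM in sham, 1.52 to 9.64 in scrambled and 0.411 to 1.06 in knockdown libraries. Most of the sum in scrambled libraries 1 and 3 was Pck1 (8.11 and 3.02 CPM), and Plin1 was at 0 in both. Those of red blood cells (5 genes, 4 at 0 in all) ran from 0.506 to 1.67, 4.52 to 18.0 and 1.17 to 3.94 CPM. These are the values of Alas2 alone, since the globin genes were at 0. Both sums were highest in scrambled libraries. The part of these cells in the values of the 10 genes was not tested. Foxo1, Fbxo32, Bnip3, Map1lc3b and Gabarapl1 share exon sequence with a gene on the opposite strand in the annotation. The counting strand is not given in the sources used here, so reads of such partners cannot be told apart.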

How the data were processed

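The authors deposited 1 table of unnormalised read counts, 24419 gene symbols by 8 libraries. The submitters' processing notes name R 4.2.1, DESeq2 1.36.0, STAR, Bowtie, bcl2fastq 2.20 and the mm10 build, with no roles. Which tool, annotation and strand setting made the counts is not given in the sources used here. Per the labels' protocols, libraries came from a stranded mRNA kit, from RNA of integrity number 7 or more, with paired reads of 59 bases.

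Counts were analysed in R 4.3.3 with edgeR 4.0.16: filterByExpr (minimum count 10, minimum total 15), TMM and a robust quasi-likelihood fit of 3 group means over all 8 libraries, so that each comparison also draws on the spread of the third group. Tests were two-sided, adjusted by Benjamini and Hochberg over 13646 genes, with a threshold of 0.05. An SE is the size of a log2 change over the root of its F statistic. Intervals use the total degrees of freedom of the fit, which add those shared across genes to the residual ones. CPM used the TMM-scaled library sizes of the tested genes; log2 CPM for components and likeness had a prior count of 2. Pairs of libraries of a group differed by more than sampling noise (chi-square per gene from 7.99 to 376).

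The members and lists were chosen with earlier results of these data known. Named genes were the members; of each pathway list the called genes, at most 4 a comparison, otherwise the 2 with the smallest p; and the 3 genes most like Foxo1, Foxo3 and Fbxo32, among those with a mean of at least 5 CPM and at least the median spread. Relatives of members, Cd34, Dcn, Col3a1, Ly6a, Epcam, Cdh1, Krt19 and Sgk1 were named after their values were seen. Exon lengths, loci and transcripts came from GENCODE M21 (GRCm38, the build also called mm10), and promoters and microRNAs from RefSeq. Alternatives were other scaling, no filter, DESeq2 1.42.0, limma-voom (limma 3.58.1), edgeR's legacy method, fits of 2 groups, a replicate block and leaving out each library. The fit was tested on simulated data. Libraries had no molecular identifiers, so counting intervals cover reads only.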

Additional observations from a re-analysis of the deposited data

How the results depend on the processing

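The direction of all 10 genes held in scrambled against sham and in knockdown against scrambled libraries under each of 15 alternatives that could test them; what changed was the number called. The other scaling (size factors of DESeq2) moved no count of calls by over 1.5 times. In scrambled against sham libraries the members called higher, 1 in the reported fit, were 7 with DESeq2 and 0 with limma-voom, with edgeR's legacy method, in a fit of these groups alone and with the replicate block, and from 0 to 10 when single libraries were left out (10 without scrambled library 2, 0 without any other). All genes called higher, 150 in the reported fit, were 1259 with DESeq2, 4 in a fit of these groups alone and 14 with the replicate block, and from 0 to 3441 with a library left out; those called lower, 65, were 714, 0 and 2 in the same order, 27 with the legacy method, and from 0 to 3467. In knockdown against scrambled libraries the members called lower were 7 with DESeq2 and from 0 to 9 with a library left out (9 without scrambled library 2). All genes called higher, 1, were 759 with DESeq2 and 0 with limma-voom, the legacy method, these groups alone and the replicate block, and from 0 to 3705; those called lower, 6, were 1447 with DESeq2, 10 without a filter, 1 with the legacy method, 0 with these groups alone and with the replicate block, and from 0 to 3608. In knockdown against sham libraries all genes called higher, 1, were 25 with DESeq2, 2 without a filter, 73 in these groups alone and 0 with the replicate block, and from 0 to 23; those called lower, 0, were 1 with DESeq2, 28 in these groups alone and from 0 to 9. No member was called there under any alternative, and the changes of 3 turned sign: Trim63 (1.77 in the reported fit, -0.75) and Gabarapl1 (-0.0022) with the replicate block, and Fbxo30 and Gabarapl1 with a library left out (from -0.12 to 0.23 and from -0.016 to 0.23; below 0 without sham library 1, and for Fbxo30 also without knockdown library 1 at -0.04). Trim63 was not tested without scrambled library 1 or 3, and not in the fits of 2 groups that included the knockdown libraries. The cause of these changes was not tested. Fits with a library left out also rest on fewer libraries. The labels do not say that a replicate number pairs mice: the deviations of same-numbered libraries correlated between -0.06 and 0.17, and not every library correlated best with its own number. With 2 sham libraries, leaving 1 out assumes that the other varies like the remaining groups.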
